A study of Homo sapiens with 3 samples.

Results

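Cyclin K and the kinases, cyclins and inhibitors that drive RNA polymerase II through transcription were followed in AsPC-1, a human pancreatic cancer cell line, after knockdown of the long non-coding RNA LINC00941. The group holds 10 genes of the 16463 in the expression table: CCNK, CDK12, CDK13, CDK9, CCNT1, CCNT2, HEXIM1, LARP7, CDK7 and CCNH. CCNK was chosen by its low read counts with both siRNAs in the comparisons described here, and the other genes were added for their roles around it, so the change of CCNK and the counts of changed genes are given as a description, with no test. Cells of wild-type genotype were transfected with 1 of 3 siRNAs at 200 nM, and total RNA was taken 24 h later: siLINC00941 #1 (si#1), siLINC00941 #2 (si#2) or a control siRNA (siNC). Each condition is 1 library, so differences could not be set against replicates. Intervals are exact 95% Clopper-Pearson limits on the ratio of 2 read counts and carry counting error alone. The si#1 and si#2 comparisons share the siNC library.

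The libraries held 92510692 (si#1), 90867405 (si#2) and 88690997 (siNC) reads in listed genes. LINC00941, the targeted RNA, had 214 reads with si#1 (1.65 TPM), 273 with si#2 (2.04 TPM) and 1551 in siNC (13.5 TPM), so the labels fit the knockdown. The 6 ductal epithelial markers examined were all listed, from 1.94 TPM (KRT7) to 3889 TPM (KRT8), and none of 8 markers of leukocytes, fibroblasts, endothelium, acini or islets was listed. A log2 fold change is the value in one library minus that in another, both as quantile-normalized log2(read count + 1), and a gene was called changed at 2-fold. TPM, a level per transcript length and depth, is used where genes are compared with each other.

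RNA polymerase II is controlled by phosphorylation of its long C-terminal tail. CDK7 with cyclin H, as part of the general factor TFIIH, acts at initiation. CDK9 with cyclin T, together called P-TEFb, releases the paused polymerase and is held inactive by HEXIM1 on the 7SK small nuclear RNA, which LARP7 stabilizes. CDK12 and CDK13, each with cyclin K, act during elongation, and CDK12 is known in human cells for sustaining the expression of long DNA repair genes.

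CCNK fell with both siRNAs and was the only one of the 10 genes to pass 2-fold with either. It encodes cyclin K, the cyclin partner of CDK12 and CDK13 (gene ID 8812, chromosome 14, 99481409 to 99512440, plus strand in GRCh38). It had 226 reads with si#1 (0.935 TPM), 150 with si#2 (0.604 TPM) and 936 in siNC (4.39 TPM). The siNC library stood far above both siRNA libraries, which were themselves apart by a log2 difference of 0.61 (0.30 to 0.91) between si#1 and si#2. The log2 fold change was -2.07 with si#1 (interval -2.28 to -1.86) and -2.67 with si#2 (interval -2.93 to -2.42), or 0.238 (si#1) and 0.157 (si#2) of the siNC level. Over all 16463 genes, the change of CCNK ranked 156 from the lowest with si#1 and 61 from the lowest with si#2. Among 9536 protein-coding genes with at least 500 reads in siNC, it ranked 11 with si#1 and 3 with si#2. CCNK meets that filter through siNC alone, where it is high, and was chosen by its low siRNA counts. The ranks are therefore a description only. Of all 16463 genes, 6.8% were 2-fold or more lower with si#1, 7.17% with si#2 and 3.51% with both, and of the 12106 genes averaging 100 reads or more, 2.21% were lower with both. None of the 10 genes was 2-fold higher, beside 5.22% of all genes with si#1, 5.49% with si#2 and 2.53% with both. On quantile-normalized log2(TPM + 1), the log2 fold change of CCNK was -1.30 with si#1 and -1.57 with si#2, where the added 1 is of the size of its levels. The log2 ratio of TPM with nothing added was -2.23 with si#1 and -2.86 with si#2, while the median of all genes on that scale was -0.10 and -0.18.

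**Figure D1:**
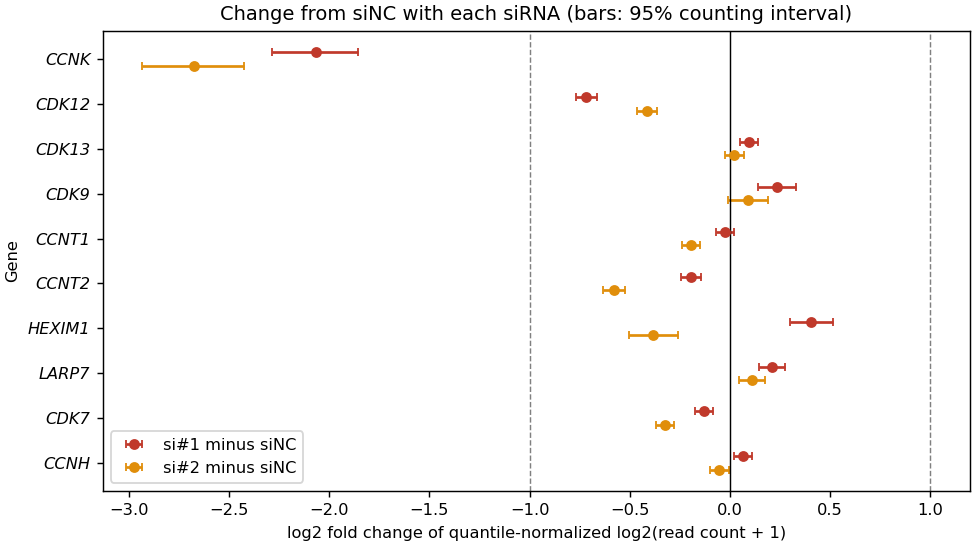
Log2 fold change of quantile-normalized log2(read count + 1) against siNC (horizontal axis) for each gene (vertical axis), with si#1 in red and si#2 in orange. Bars are 95% counting intervals and dashed lines mark 2-fold. CCNK lies at -2.07 and -2.67, and the 9 other genes lie between -0.72 and 0.41.

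The 250 bases in front of the CCNK start are shown because CCNK was the gene of the 10 that fell, while SETD3 did not. They lie between the CCNK start and the divergent start of the canonical SETD3 transcript in GENCODE. The longer RefSeq span of SETD3 covers them. They lie at chr14:99481159-99481408 of GRCh38.p14 on the plus strand and were taken from RefSeq. Capitals mark matches, on either strand, to the GC box GGGCGG and the CCAAT box CCAAT.
CCNK: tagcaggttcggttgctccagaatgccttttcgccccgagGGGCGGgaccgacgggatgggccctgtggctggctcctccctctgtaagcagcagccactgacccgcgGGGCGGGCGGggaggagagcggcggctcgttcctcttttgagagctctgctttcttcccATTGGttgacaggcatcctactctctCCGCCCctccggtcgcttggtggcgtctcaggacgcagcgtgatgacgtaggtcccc
The window is 65.2% G and C with 20 CpG dinucleotides, against a median of 58.0% in 35116 windows of the same length. GGGCGG matches begin 210, 142, 138 and 57 bases before the start, of which the middle pair overlap, and 42.6% of all windows hold at least 1. The CCAAT match lies 83 bases before the start and is held by 32.0% of windows. Neither CCGGAA, a longer form of the ETS core GGAA (14.5% of windows), nor the TATA box TATAAA (10.7%) occurs in these letters. The shorter core GGAA does occur on the opposite strand, read here as TTCC. It lies also within CTTCC, the ELK-1 site named in the paper. These shorter words were not counted over all windows. These matches describe the sequence alone.

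The counts of CCNK depend on how reads were given to genes that lie over it. CCDC85C, a gene of the minus strand (chromosome 14, 99500190 to 99604207), runs into the end of CCNK, and 2990 exon bases of the canonical CCNK transcript, or 84.8% of its 3524, are also exon of CCDC85C in GENCODE. The library kit was stranded, but the sources used here do not say whether the counting used strand. Without it, reads that lie within the shared exon bases may not be told apart. CCDC85C had 4686 reads with si#1 (4.14 TPM), 5963 with si#2 (5.12 TPM) and 3831 in siNC (3.82 TPM), higher where CCNK was lower, with log2 fold changes of 0.26 (si#1) and 0.66 (si#2). The reads of both genes together came to 4912 with si#1 and 6113 with si#2, against 4767 in siNC. CCNK took 4.6% of that sum with si#1 and 2.45% with si#2, against 19.6% in siNC. The part of this overlap in the change of CCNK was not tested.

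SETD3, which encodes a histidine methyltransferase of actin, lies on the other side and starts 550 bases upstream of CCNK on the opposite strand in their canonical transcripts. In RefSeq, SETD3 spans 99397748 to 99486458 and shares 5050 bases with the CCNK gene. SETD3 had 12177 reads with si#1 (63.6 TPM), 12563 with si#2 (63.9 TPM) and 10761 in siNC (62.8 TPM). Its log2 fold changes were 0.16 (si#1) and 0.27 (si#2), while its TPM was nearly equal in the 3 libraries. It shares no exon base with the canonical CCNK transcript. The listed genes further out within 250 kb were the transcription factor gene BCL11B (644 reads with si#1, 536 with si#2 and 684 in siNC) and the microtubule-associated protein gene EML1 (21 reads with si#1, 41 with si#2 and 17 in siNC). None of these neighbours fell as CCNK did. EML1 passed 2-fold upward with si#2 on at most 41 reads, with a log2 fold change of 1.24 (0.39 to 2.15).

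**Figure D2:**
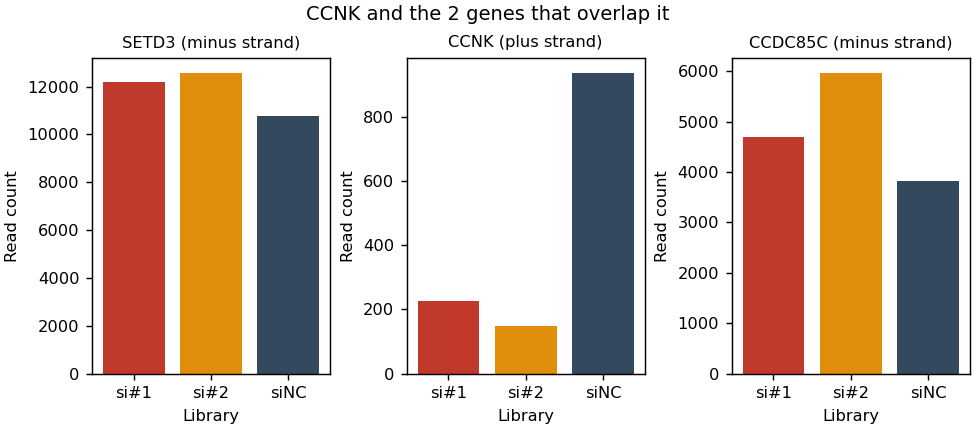
Read counts (vertical axes, each from 0 with its own scale) of SETD3, CCNK and CCDC85C in the si#1, si#2 and siNC libraries (1 bar per library). CCNK is highest in siNC at 936 reads, whereas both genes that overlap it have their fewest reads in siNC. The TPM of SETD3 was nearly equal, at 63.6 (si#1), 63.9 (si#2) and 62.8 (siNC).

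Neither kinase that cyclin K serves passed 2-fold, and CDK12 was the one that lay below siNC with both siRNAs. CDK12 (gene ID 51755, chromosome 17, 39461486 to 39567559, plus strand) had 4489 reads with si#1 (7.93 TPM), 5364 with si#2 (9.21 TPM) and 7250 in siNC (14.5 TPM). Both siRNA libraries lay below siNC, that of si#1 the lower, and the log2 fold change was -0.72 with si#1 (interval -0.77 to -0.66) and -0.41 with si#2 (interval -0.47 to -0.36). At a threshold of 1.5-fold, CDK12 would join CCNK with si#1 and would not with si#2. CDK13 (gene ID 8621, chromosome 7, 39950256 to 40099580, plus strand), the closest relative of CDK12, had 8001 reads with si#1 (15.9 TPM), 7303 with si#2 (12.8 TPM) and 7310 in siNC (13.6 TPM). Its log2 fold changes of 0.10 with si#1 (interval 0.05 to 0.14) and 0.02 with si#2 (interval -0.03 to 0.07) stayed close to 0, and with si#2 the interval includes 0 and the TPM lay below siNC. The TPM of CDK12 relative to that of CDK13 was 0.497 with si#1 and 0.719 with si#2, against 1.06 in siNC. The TPM of CCNK relative to that of CDK12 was 0.118 with si#1 and 0.0656 with si#2, against 0.303 in siNC.

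**Figure D3:**
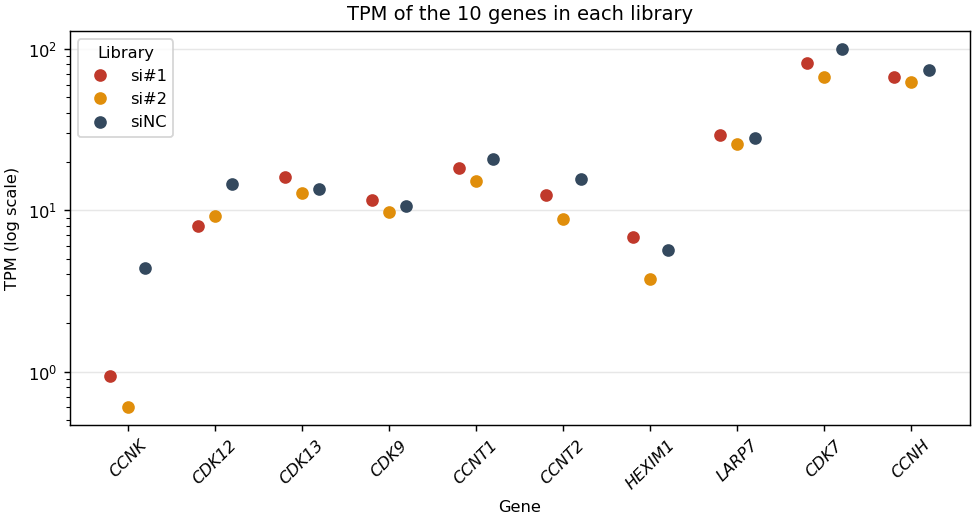
TPM (vertical axis, log scale) of each gene (horizontal axis) in the si#1 (red), si#2 (orange) and siNC (dark) libraries, 1 point per library. CCNK is the lowest of the 10 in every library, and CDK7 and CCNH are the highest.

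No P-TEFb gene passed 2-fold. By normalized reads the kinase lay at or above its siNC level (by TPM, below it with si#2), and its cyclins at or below theirs. CDK9 (gene ID 1025, chromosome 9, 127786034 to 127790792, plus strand) had 1953 reads with si#1 (11.5 TPM), 1710 with si#2 (9.8 TPM) and 1594 in siNC (10.6 TPM), with a log2 fold change of 0.23 with si#1 (interval 0.14 to 0.33) and 0.09 with si#2 (interval -0.01 to 0.19). The first value lies above 0 beyond counting error and the second does not. CCNT1, the main cyclin T (gene ID 904, chromosome 12, 48688458 to 48716707, minus strand), had 8418 reads with si#1 (18.3 TPM), 7205 with si#2 (15.2 TPM) and 8426 in siNC (20.7 TPM). Its si#1 and siNC libraries nearly coincide and si#2 lies lower, with a log2 fold change of -0.02 with si#1 (interval -0.07 to 0.02) and -0.19 with si#2 (interval -0.24 to -0.15). CCNT2 (gene ID 905, chromosome 2, 134918822 to 134959342, plus strand), the alternative cyclin T, had 5944 reads with si#1 (12.4 TPM), 4366 with si#2 (8.87 TPM) and 6642 in siNC (15.7 TPM). It was below siNC with both siRNAs, more so with si#2, at -0.20 with si#1 (interval -0.25 to -0.15) and -0.58 with si#2 (interval -0.63 to -0.52). In TPM, CCNT2 relative to CDK9 was 1.08 with si#1 and 0.905 with si#2, against 1.48 in siNC, and CCNT1 relative to CDK9 was 1.59 with si#1 and 1.55 with si#2, against 1.95 in siNC.

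HEXIM1, the inhibitor of P-TEFb, lay above siNC with si#1 and below it with si#2, within 2-fold. HEXIM1 (gene ID 10614, chromosome 17, 45148475 to 45152099, plus strand) had 1700 reads with si#1 (6.87 TPM), 954 with si#2 (3.74 TPM) and 1240 in siNC (5.66 TPM). The log2 fold change was 0.41 with si#1 (interval 0.30 to 0.51) and -0.38 with si#2 (interval -0.50 to -0.26), so the siNC library lies between both siRNA libraries, which differed by a log2 of 0.79 (0.67 to 0.90). This was the largest distance between si#1 and si#2 among the 10 genes. LARP7 (gene ID 51574, chromosome 4, 112637143 to 112657586, plus strand), the protein that binds and stabilizes 7SK, had 4220 reads with si#1 (29.2 TPM), 3801 with si#2 (25.7 TPM) and 3587 in siNC (28.1 TPM), with log2 fold changes of 0.21 (si#1) and 0.11 (si#2), whereas its TPM with si#2 lay below siNC. The 7SK RNA itself (RN7SK) was the most abundant of these transcripts, with 1605888 reads with si#1 (70825 TPM), 1541576 with si#2 (66063 TPM) and 1229499 in siNC (61238 TPM). Its log2 fold change is 0.00 with each siRNA because it held the same rank in every library, so quantile normalization can show no change, and near-identical 7SK copies can share its reads.

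The initiation kinase and its cyclin had the highest TPM of the 10 genes, and neither passed 2-fold. CDK7 (gene ID 1022, chromosome 5, 69234795 to 69277430, plus strand) had 7893 reads with si#1 (81.6 TPM), 6594 with si#2 (67.1 TPM) and 8475 in siNC (99.6 TPM), with a log2 fold change of -0.13 with si#1 (interval -0.17 to -0.08) and -0.32 with si#2 (interval -0.37 to -0.28). Both siRNA libraries were below siNC. CCNH (gene ID 902, chromosome 5, 87311471 to 87412930, minus strand) had 7749 reads with si#1 (67.3 TPM), 6862 with si#2 (62.5 TPM) and 7252 in siNC (74.3 TPM), and its log2 fold changes of 0.07 with si#1 (interval 0.02 to 0.11) and -0.05 with si#2 (interval -0.10 to -0.01) were near 0 on either side, whereas its TPM lay below siNC with both siRNAs. CDK7 overlaps CCDC125 and CCNH overlaps RASA1 on opposite strands, with read counts of 1018 and 8687 with si#1 and 733 and 6769 with si#2, against 995 and 8848 in siNC.

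Ordered by TPM in siNC, the genes ran CDK7, CCNH, LARP7, CCNT1, CCNT2, CDK12, CDK13, CDK9, HEXIM1 and CCNK. The first 4 and the last 2 held the same places with both siRNAs. CDK12, sixth in siNC, was eighth of 10 with si#1 and seventh with si#2. With 1 library each, the spread within a condition is unknown, and neighbours such as CDK12 and CDK13 in siNC (14.5 and 13.6 TPM) cannot be ordered beyond these libraries. CCNK stood at percentile 27.9 of all genes by TPM with si#1 and 24.0 with si#2, against 43.7 in siNC. The median log2 fold change of the 10 genes was 0.02 with si#1 and -0.26 with si#2, beside 0.03 and 0.02 over all genes.

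Between si#1 and si#2 themselves, none of the 10 genes differed 2-fold, beside 8.23% of all genes in either direction. The log2 differences of si#1 minus si#2 ran from -0.30 (-0.36 to -0.24) for CDK12 to 0.79 for HEXIM1. The median difference of the 10 was 0.16, beside 0.00 over all genes.

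The wider machinery was read from lists of related genes. Of 12 RNA polymerase II subunits, POLR2A, which encodes the catalytic subunit that carries the phosphorylated tail, fell with both siRNAs, 1 gene of 12 beside 3.51% of all genes. It had 3094 reads with si#1 (6.71 TPM), 3088 with si#2 (6.51 TPM) and 8635 in siNC (21.2 TPM), with log2 fold changes of -1.50 (si#1) and -1.45 (si#2). The other 11 subunits did not pass 2-fold, and the list had medians of 0.25 (si#1) and 0.23 (si#2). Of 14 pausing and elongation factors, NELFB, a subunit of the negative elongation factor that holds the paused polymerase, rose with both siRNAs and none fell, beside 2.53% of all genes that rose and 3.51% that fell. Counts this small in lists of this size are not read as results about the lists. NELFB had 9924 reads with si#1 (57.2 TPM), 10066 with si#2 (56.4 TPM) and 4496 in siNC (29.3 TPM), with log2 fold changes of 1.11 (si#1) and 1.21 (si#2), and the list medians were 0.21 and 0.16. Its log2 TPM ratios of 0.97 (si#1) and 0.95 (si#2) fell short of 2-fold, on a scale where the median of all genes was -0.10 and -0.18.

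The next lists are small, and low counts of changed genes in them are not read as results about the lists. Of all genes, 6.8% were 2-fold or more lower with si#1, 7.17% with si#2 and 3.51% with both. The shares 2-fold or more higher were 5.22% with si#1 and 5.49% with si#2. None of the 6 measured regulators of P-TEFb passed 2-fold (medians 0.31 and 0.31). They include RN7SK, whose unchanged rank fixes its value at 0.00 with each siRNA, so it could show no change. MEPCE, the enzyme that caps 7SK, lay at 0.42 (si#1) and 0.60 (si#2). Of 8 measured members of the super elongation complex, which carries P-TEFb, none passed with both siRNAs. Its scaffold AFF1 (1797 reads with si#1, 1990 with si#2 and 3994 in siNC) fell with si#1, at -1.19 (si#1) and -0.99 (si#2), and AFF4 (6252 reads with si#1, 5112 with si#2 and 10434 in siNC) with si#2, at -0.76 (si#1) and -1.01 (si#2), while the elongation factor ELL lay at 0.60 (si#1) and 0.65 (si#2). By log2 TPM ratio, AFF1 passed 2-fold with both siRNAs, at -1.32 (si#1) and -1.21 (si#2). On that scale the median of all genes was itself below 0, at -0.10 (si#1) and -0.18 (si#2). The medians of this list by normalized reads were -0.42 and -0.31. AFF1 (9261 bases) and AFF4 (9536 bases) have long transcripts, and the part of length in their values was not tested. None of 8 other TFIIH genes passed 2-fold (medians 0.14 and 0.18), with the helicase ERCC2 at 0.15 (si#1) and 0.63 (si#2) and GTF2H4 at 0.13 (si#1) and -0.42 (si#2). The same held for 9 other transcriptional kinases and cyclins (medians -0.02 and 0.19), among which CDK10 lay at 0.54 (si#1) and 0.69 (si#2) and the Mediator kinase CDK19 at -0.20 (si#1) and -0.97 (si#2). By log2 TPM ratio, CDK19 lay at -0.32 (si#1) and passed 2-fold with si#2, at -1.17. Of 7 phosphatases of the polymerase tail none passed (medians 0.04 and -0.27), with SSU72 at 0.37 (si#1) and 0.23 (si#2) and CTDSPL at -0.36 (si#1) and -0.42 (si#2).

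**Figure D4:**
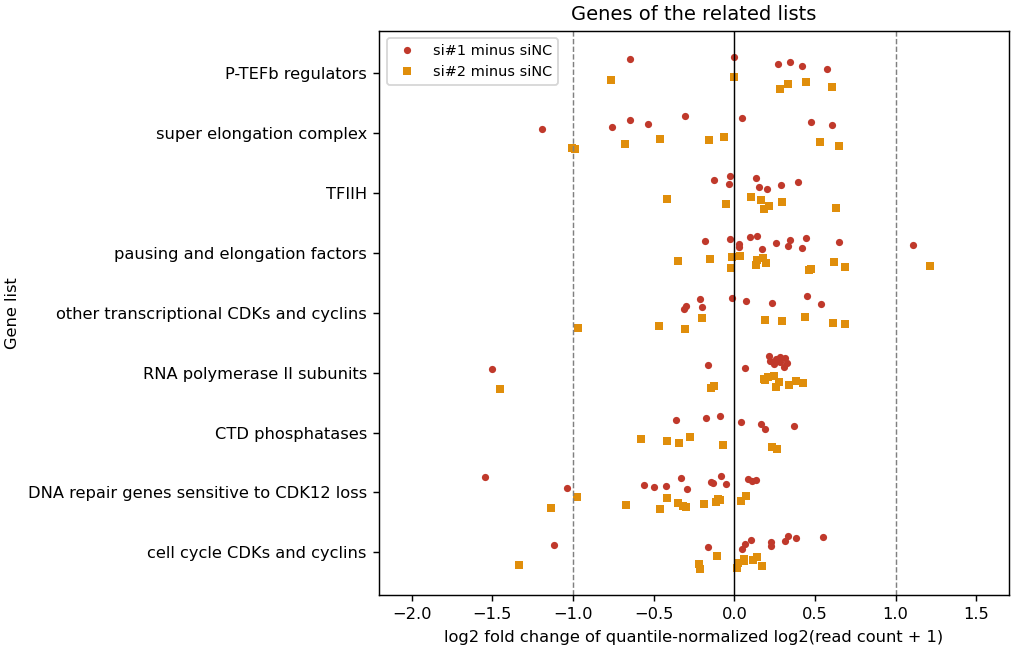
Log2 fold change of quantile-normalized log2(read count + 1) (horizontal axis) of each gene of the related lists (vertical axis), with si#1 as red circles and si#2 as orange squares, 1 point per gene and siRNA. Dashed lines mark 2-fold. POLR2A lies apart from the other polymerase subunits at -1.50 and -1.45.

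DNA repair genes known to depend on CDK12 were mostly a little below siNC. Of 14 such genes, 10 were below siNC with both siRNAs, beside 36.0% of the 12106 genes averaging 100 reads or more, and BRCA2 alone fell 2-fold with both, beside 3.51% of all genes. BRCA2 had 3649 reads with si#1 (4.69 TPM), 3302 with si#2 (4.13 TPM) and 7350 in siNC (10.7 TPM), with log2 fold changes of -1.04 (si#1) and -1.13 (si#2). MDC1, a mediator of the damage checkpoint, fell with si#1, at -1.54 (si#1) and -0.97 (si#2). By log2 TPM ratio, MDC1 passed 2-fold with both, at -1.68 (si#1) and -1.18 (si#2). On that scale the median of all genes was itself below 0, at -0.10 (si#1) and -0.18 (si#2). BRCA1 (-0.30 and -0.46), the checkpoint kinase gene ATR (-0.42 and -0.32) and the Fanconi anaemia gene FANCI (-0.05 and -0.19) did not pass with si#1 or with si#2. The list medians were -0.22 and -0.31. These genes have long transcripts, with a median of 5346 bases in GENCODE against 3188 over genes averaging 100 reads or more, and across those genes log2 fold changes were lower for longer transcripts. The median was 0.11 with si#1 and 0.11 with si#2 for the 4098 genes of 2000 to 4000 bases, and -0.22 and -0.28 for the 1592 genes of 6000 to 10000 bases. By length, 0.909% of genes under 2000 bases fell 2-fold with both siRNAs, 0.854% of those of 2000 to 4000 bases, 1.88% of 4000 to 6000, 4.46% of 6000 to 10000 and 14.8% of the 453 genes of 10000 bases or more. In the same order, 19.9%, 27.5%, 45.8%, 62.9% and 74.8% were below siNC with both. The list median of 5346 bases lies in the bin of 4000 to 6000 bases, and BRCA2 (11954 bases) in the longest. CCNK (3524 bases) belongs to the bin of 2000 to 4000 bases. POLR2A (6312), CDK12 (8287), CDK13 (9525), CCNT1 (6788) and CCNT2 (6920) belong to that of 6000 to 10000 bases. So do AFF1 (9261) and AFF4 (9536) of the super elongation complex. The part of transcript length in these values was not tested.

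**Figure D5:**
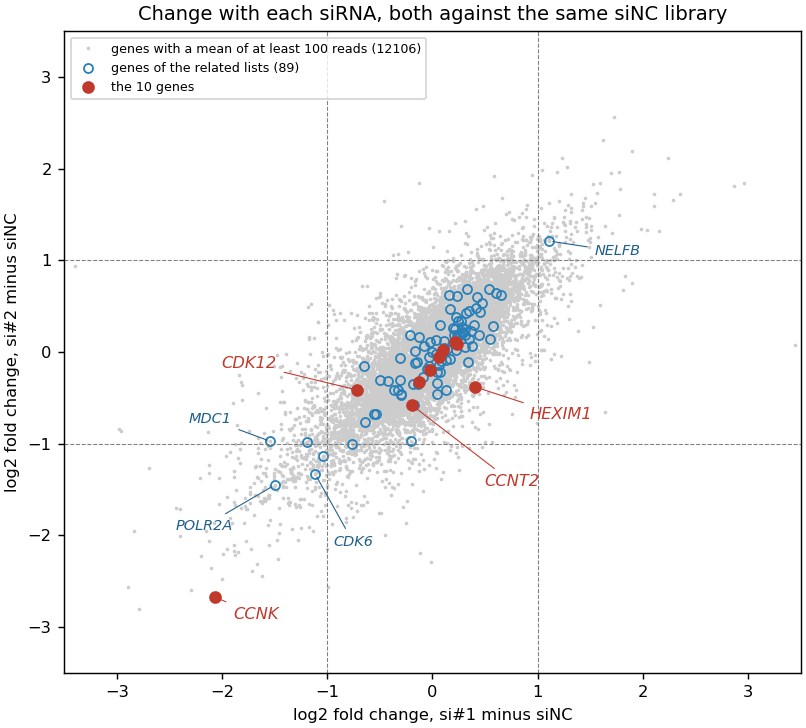
Log2 fold change with si#1 (horizontal axis) and with si#2 (vertical axis), both against the same siNC library, for 12106 genes averaging 100 reads or more (grey), 89 measured genes of the related lists (blue circles) and the 10 genes (red). Dashed lines mark 2-fold and 8 genes lie beyond the axes. CCNK lies at the lower left edge of the cloud, and the other 9 red points lie within 2-fold on both axes.

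The genes whose pair of log2 fold changes was nearest to that of CCNK, among 9535 protein-coding genes with at least 500 reads in siNC, were BIRC3, F5, RFX7, HIPK2 and USF3, at Euclidean distances of 0.212 to 0.502 over the 2 comparisons. BIRC3, which encodes an inhibitor of apoptosis, had 3121 reads with si#1, 2187 with si#2 and 12247 in siNC. The coagulation factor gene F5 lay at -2.10 (si#1) and -2.36 (si#2). RFX7 (-1.71 and -2.39) encodes a transcription factor and HIPK2 (-1.88 and -2.21) a nuclear kinase, and USF3 lay at -1.62 (si#1) and -2.45 (si#2). Their transcripts, of 6877 to 15329 bases, were longer than that of CCNK. The filter of 500 reads looks at siNC alone and favours genes that are high there. CCNK and F5 (326 reads with si#1, 275 with si#2 and 1356 in siNC) meet it in that library only. The 5 genes therefore describe the pattern by which CCNK was chosen, and nothing was tested.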

How the data were processed

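Total RNA of 3 AsPC-1 libraries was read from 1 deposited table. The authors mapped read pairs with HISAT2 (GRCh38) and used StringTie for known genes. Tool versions and strand handling are not given in the sources used. The deposited read counts are whole numbers per gene, with at least 1 read in every library for all 16463 genes. The TPM were computed by the authors. The authors' log2 values are quantile-normalized log2(value + 1) and were repeated here from the read counts to within 5e-09, although the methods describe FPKM as the input. The authors' fold changes were not used, nor were 6 further per-sample columns of the same table and 15 of a second sheet, which holds 7 genes and none of the 10 described.

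With 1 library per condition no test was run. Quantile-normalized log2(read count + 1) was subtracted between libraries, and 2-fold was the threshold. The 95% Clopper-Pearson intervals were shifted by the normalization and cover counting error only. The calculation of fold changes and intervals was checked on simulated counts, which does not bear on the spread between cultures. RefSeq (GRCh38.p14) gave positions for 16437 genes, all 10 included, and the upstream sequence. GENCODE gave strand, exons and canonical transcript lengths for 15270 genes.

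The 10 genes and the 9 related lists (92 genes, 89 measured) were chosen with earlier results of these data known. Named genes were the 10, list genes past 2-fold with both siRNAs or, in a list with none, its highest and lowest gene with a mean of at least 100 reads, the genes within 250 kb of CCNK, the 5 nearest patterns and LINC00941. RN7SK, AFF4, MDC1, BRCA1, ATR and FANCI were chosen after their values were seen. One gene that the rule would name is not reported here.

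Alternatives were quantile-normalized log2(TPM + 1), TMM, DESeq2 size factors, total count, a pseudocount of 10, a mean of at least 10 or 100 reads, protein-coding genes alone and a 1.5-fold threshold. The plain TPM ratio was added after seeing the data. Software was R 4.3.3, edgeR 4.0.16, DESeq2 1.42.0, Python 3.11.15, numpy 2.4.6, pandas 2.3.3, scipy 1.17.1 and matplotlib 3.10.9.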

Additional observations from a re-analysis of the deposited data

Results flagged for a closer look

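HEXIM1 and CCNH are listed here because their log2 fold changes against siNC had opposite signs with each siRNA, each beyond counting error. HEXIM1 lay at 0.41 (si#1) and -0.38 (si#2), and kept these opposite signs in all 10 settings tried. CCNH lay at 0.07 (si#1) and -0.05 (si#2), and its value with si#1 was above 0 in 8 of 10 settings. With 1 library per siRNA, the difference was not tested.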

How the results depend on the processing

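CCNK stayed past 2-fold lower with both siRNAs in every setting tried. Its log2 fold change moved beyond its counting interval under 1 of them, quantile-normalized log2(TPM + 1), at -1.30 with si#1 and -1.57 with si#2. By construction, adding 1 to a TPM near 1 shrinks a fold change. At a 1.5-fold threshold, 2 of the 10 genes were lower with si#1, CCNK and CDK12, against 1 at 2-fold, and 1 was lower with si#2. The other 9 genes gave 162 values under the alternatives, from -0.87 to 0.41. None of these passed 2-fold, 39 lay outside the counting interval of the value reported, and 8 had another sign, all of small values of CCNH with si#1 or of CDK13, CDK9 or LARP7 with si#2. With 1 library per condition no library could be left out. No paired analysis was possible because each group has 1 library and no test was run. CCNK had the fewest reads of the 10 genes, with 150 with si#2. Every setting starts from the same deposited counts or TPM per gene. None of them therefore bears on the overlap of CCNK with CCDC85C, whose part was not tested.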

Other observations

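The cyclins and kinases of the cell cycle, which share their folds with the transcriptional ones, were mostly close to siNC. Of 11 measured genes, CDK6, a kinase of the G1 phase, fell with both siRNAs and none rose, beside 3.51% of all genes that fell with both and 14.8% of genes averaging 100 reads or more with transcripts of 10000 bases or more, where CDK6 (11663 bases) belongs. CDK6 had 14663 reads with si#1 (18.4 TPM), 12074 with si#2 (14.7 TPM) and 31049 in siNC (43.9 TPM), at log2 fold changes of -1.11 (si#1) and -1.33 (si#2). The medians of this list were 0.23 with si#1 and 0.02 with si#2.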
